A study of Mus musculus with 2 samples.

Results

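Immediate early genes are transcribed within minutes of a stimulus and need no new protein synthesis for it. In cortical neurons, synaptic activity raises calcium, and kinases then activate CREB and SRF, transcription factors that sit ready on the promoters of these genes. The first products are transcription factors of the AP-1, EGR and NR4A families and Npas4, and effector proteins that act on synapses, damp the signal or are secreted follow with them or later. Expression of 41 such genes was compared between WT and P4H-TM KO cortex, of which 20 encode transcription factors and 21 encode effectors or are induced with a delay. The genes are known members of the activity response, chosen with earlier results of these data known, and all 41 of them were measured among 18193 genes on the arrays, each with a probe set annotated to that gene only.

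Cortical tissue came from C57BL/6J mice aged 2.5 months that had received no treatment, all males, with the WT animals taken from the litters of the P4H-TM KO animals. P4H-TM KO mice lack the transmembrane prolyl 4-hydroxylase, an enzyme of the endoplasmic reticulum membrane, and the WT animals carry the intact gene. RNA of 4 mice was pooled for each genotype and each pool was read on 1 Affymetrix array, so no difference between genotypes has a replicate check, and neither an error between animals nor a p-value can be given. Values are log2 expression as deposited, where a difference of 1 is a doubling, and a fold of 1.5 equals a log2 difference of 0.585. Where a pair of values is given for a gene, WT comes before P4H-TM KO. P4htm, the targeted gene, had 11.05 in WT against 9.10 in P4H-TM KO, 3.86-fold lower, and the second P4htm probe set had 9.71 and 8.07. Whole cortex mixes neurons, glia and vessels, so the values are averages over cell types. In bulk tissue, a lower content of a cell type and less RNA per cell cannot be told apart.

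The transcription factor genes had higher values in the P4H-TM KO array as a group, whereas the effectors as a group lay near 0. The median log2 difference, P4H-TM KO minus WT, was 0.23 for the factors and 0.02 for the effectors, a gap of 0.21, against 0.00 for all 18193 genes. Values were higher in P4H-TM KO for 17 of 20 factors and for 14 of 21 effectors, while 46.0% of all genes were higher and 49.0% were lower. Of the 6 members that were higher by at least 0.322 and whose signal reached the median of all probe sets, 5 were factors. The gap depended on the effectors chosen, because without the late effectors Bdnf, Nptx2, Inhba, Vgf, Homer1 and Plk2 it was 0.09. It was 0.17 without probe sets that can match several transcripts, and also with the nuclear proteins Ier2, Ier5 and Btg2 counted as factors. The classes too were set with earlier results of these data known. These values describe this pair of arrays, since genes are not replicates of a genotype.

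**Figure D1:**
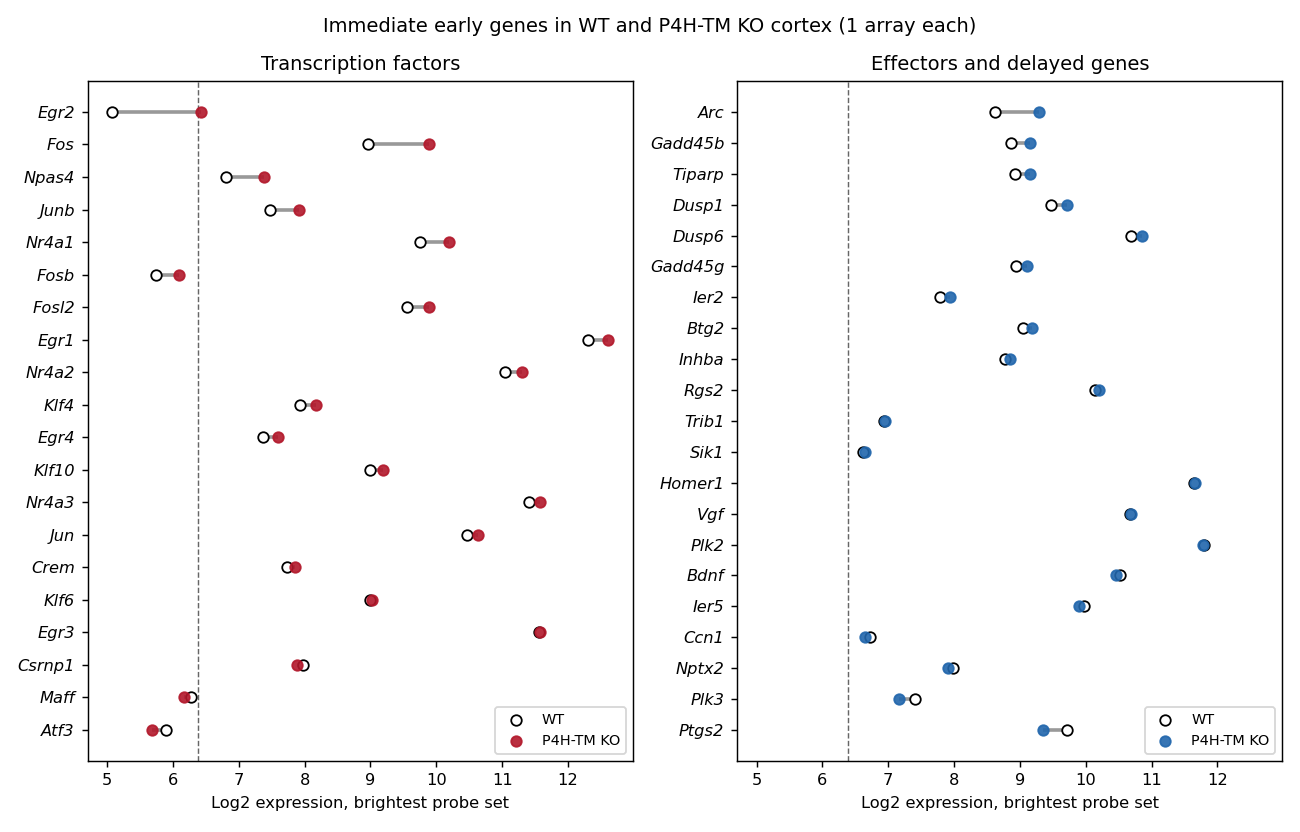
Log2 expression of each gene on its brightest probe set in WT (open circles) and P4H-TM KO (filled circles), for transcription factors (left) and for effectors and delayed genes (right), ordered by the difference. The dashed line marks the signal filter of 6.385, and error bars are missing since each genotype has a single array; the widest gaps belong to Egr2, Fos and Arc, while Homer1, Vgf and Plk2 nearly coincide.

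Counts at a threshold were limited to genes whose mean signal reached 6.385, the median of all probe sets, and 37 of the 41 members reached it. The members below it were Egr2, Fosb, Atf3 and Maff. At 1.5-fold, 2 of 37 members, Fos and Arc, were higher in P4H-TM KO, against a background of 0.631% of 11730 genes, and 0 of 37 were lower, against 0.0512%. At a log2 difference of 0.322, 6 of 37 members were higher, against 2.0% of the genes, and 1 was lower, against 0.767%. The higher members were Fos, Arc, Npas4, Junb, Nr4a1 and Fosl2, and the lower member was Ptgs2. Npas4, with a difference of 0.57, lay just short of 1.5-fold. The middle 95% of the 11730 genes spanned differences from −0.23 to 0.28. Above this span were Egr1 and the same 6 members that were higher by at least 0.322, and below it were Ptgs2 and Plk3.

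**Figure D2:**
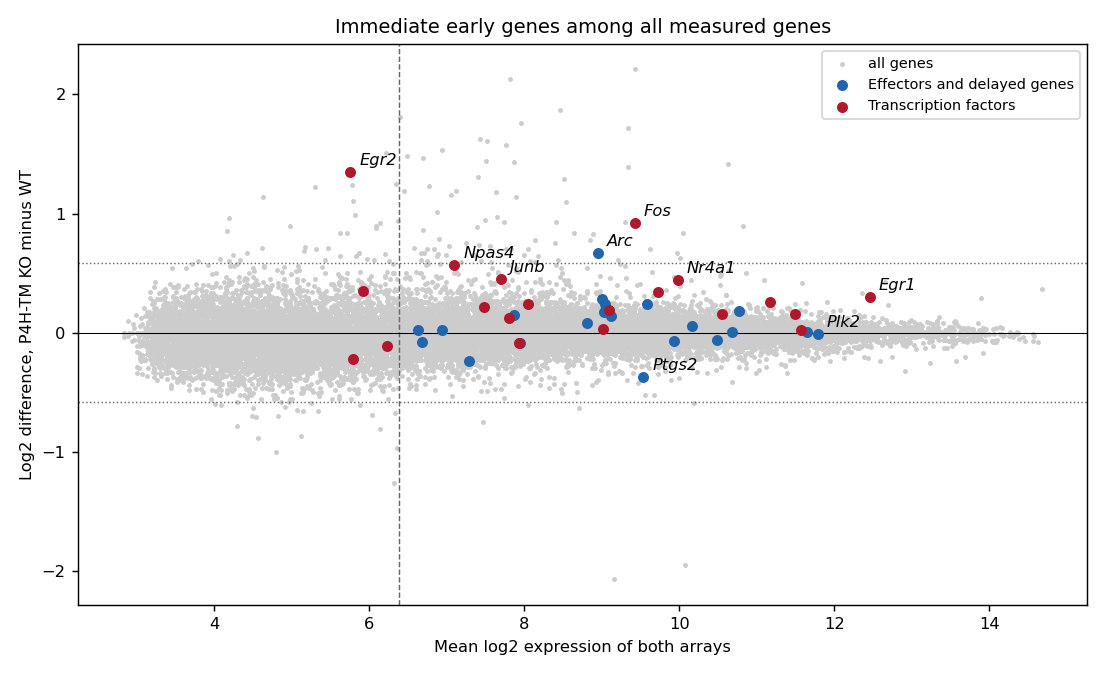
Log2 difference, P4H-TM KO minus WT, against the mean log2 expression of both arrays, for all 18193 genes (grey), the transcription factors (red) and the effectors (blue). Dotted lines mark 1.5-fold and the dashed line the signal filter of 6.385; Fos and Arc lie above the dotted line to the right of the filter, Egr2 lies above it to the left, and differences of the grey genes spread more at low signal.

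The products of AP-1 genes pair to bind DNA. All 5 members counted as AP-1 genes had higher values in P4H-TM KO, and their median difference was 0.35. The related genes Fosl1 and Jund are not members but are on the list of other activity-regulated genes. They were not higher, with differences of −0.13 for Fosl1, whose values lie below the signal filter, and −0.01 for Jund. Fos, the classical marker of recently active neurons, had 8.97 in WT against 9.89 in P4H-TM KO, which is 1.89-fold higher. Only 0.236% of all genes had a difference at least as large as the 0.92 of Fos. Junb, a partner of Fos, had 7.47 and 7.92, a difference of 0.45. Fosl2 had 9.55 and 9.89, and its dimmer probe set gave 0.29 beside the 0.34 of the brighter one. Fosb, below the signal filter, had 5.74 and 6.09. Jun, the main Fos partner, differed less, with 10.47 and 10.63, and its other probe set differed by 0.03.

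The 4 EGR genes encode zinc finger factors that are induced by SRF and its partners, and all had higher values in P4H-TM KO, but over a wide range. Egr2 had the largest difference of any member, with 5.08 in WT against 6.43 in P4H-TM KO, 2.55-fold higher. Its WT value lies below the signal filter, so the size of this fold is uncertain. Its other probe set, with 4.97 and 6.21, also lies below the filter and can match several transcripts. Egr1 had 12.31 and 12.61, a difference of 0.30, and Egr4 had 7.37 and 7.59. Egr3 was nearly equal on both arrays, with 11.56 and 11.58, and with 6.84 and 6.87 on its other probe set. Differences in this family thus ran from 0.02 to 1.35.

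Npas4, a neuronal factor that responds to calcium entry in particular, had 6.81 in WT against 7.38 in P4H-TM KO, a difference of 0.57. The 3 NR4A genes encode nuclear receptors that act without a known hormone, and each was higher on its brightest probe set. Nr4a1 had 9.76 and 10.20, a difference of 0.44, and Nr4a2 had 11.04 and 11.30, a difference of 0.26. On the other Nr4a2 probe sets, differences ran from −0.04 to 0.45. Those of 0.45, 0.36 and 0.35 came from probe sets that can match several transcripts, and the remaining ones, below the filter, gave 0.03 and −0.04. Nr4a3 had 11.41 and 11.57, but its dimmer probe sets gave −0.13 and 0.20. On the brightest probe sets, Nr4a1 thus had the largest difference of this family.

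The remaining factors had differences from −0.22 to 0.24. The Kruppel-like factors Klf4, Klf10 and Klf6 differed by 0.24, 0.19 and 0.03, and the second Klf4 probe set by 0.01. Crem, which encodes activators and repressors of cAMP response, had 7.74 in WT against 7.86 in P4H-TM KO. Csrnp1 had 7.98 and 7.89, with 0.02 on a dimmer probe set. Maff and Atf3, leucine zipper factors of the stress response, had 6.28 and 6.17, and 5.90 and 5.68. Both lie below the signal filter. The 3 factors with lower values in P4H-TM KO were therefore Csrnp1, Maff and Atf3, none of which was counted with the AP-1, EGR or NR4A genes.

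Arc had the largest difference of the effectors. Its product, which removes AMPA receptors from synapses, is translated near them, and Arc had 8.62 in WT against 9.29 in P4H-TM KO, 1.59-fold higher. A difference at least as large as the 0.67 of Arc was found in 0.451% of all genes. Homer1, a scaffold of metabotropic glutamate receptors, had 11.65 and 11.66 on its brightest probe set. The other 5 probe sets of Homer1 ranged from −0.55, on a dim one, to 0.35, on one with 10.46 in WT against 10.81 in P4H-TM KO. Activity induces a short form of Homer1, and which probe sets detect it was not examined. Nptx2, a secreted pentraxin that clusters AMPA receptors, had 7.99 and 7.90.

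Genes grouped as negative regulators of signaling, Plk2 and Plk3 among them, showed small differences. Their median was 0.02 over 7 genes. The MAP kinase phosphatase genes Dusp1 and Dusp6 had 9.47 and 10.68 in WT and 9.71 and 10.86 in P4H-TM KO, differences of 0.24 and 0.18. Rgs2, which limits G protein signaling, had 10.14 and 10.20. The kinase genes Sik1 and Plk2 and the pseudokinase gene Trib1 differed by 0.02, −0.01 and 0.02, and each turned sign when probe sets were averaged. The second probe set of each lies below the signal filter. Plk3 had 7.41 in WT against 7.17 in P4H-TM KO on its single probe set. The phosphatases that shut down MAP kinases were thus the members of this group with the highest values relative to WT.

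The nuclear regulators were higher in 5 of 6 cases, with a median difference of 0.16. Gadd45b, which takes part in DNA demethylation, had 8.87 in WT against 9.15 in P4H-TM KO, and the dimmer probe sets gave 0.34 and 0.06. Gadd45g had 8.94 and 9.11. Tiparp, a mono-ADP-ribosyltransferase, had 8.92 and 9.16, and Ier2 had 7.79 and 7.94. Btg2, an antiproliferative protein, had 9.05 and 9.19 and nearly the same difference, 0.13, on its second probe set. Ier5 was the exception, with 9.97 and 9.90 and with equal values on its dimmer probe sets.

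Secreted products and enzymes had a median difference of −0.06, and 3 of 5 were lower in P4H-TM KO. Bdnf, the neurotrophin, had 10.52 in WT against 10.46 in P4H-TM KO, and 9.61 and 9.63 on its second probe set. Vgf, the precursor of secreted neuropeptides, had 10.67 and 10.68, and Inhba, a subunit of activin, had 8.77 and 8.85. Ptgs2, the inducible cyclooxygenase of excitatory neurons, had the lowest difference of all members, with 9.72 in WT against 9.35 in P4H-TM KO. Its second probe set gave a difference of −0.34, close to the −0.37 of the first. Ccn1, a matricellular protein, had 6.72 and 6.64, but averaged over its 4 probe sets the difference turned to 0.0925. All but the brightest of these probe sets lie below the signal filter.

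The late effectors Bdnf, Nptx2, Inhba, Vgf, Homer1 and Plk2 had a median difference of 0.00 and ranged from −0.09 to 0.08. The other 15 effectors had a median of 0.14 and ranged from −0.37 to 0.67. On the brightest probe sets, none of the late effectors reached the 0.57 of Npas4, and of the other 15 effectors only Arc did. The next highest effector was Gadd45b, at 0.28.

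**Figure D3:**
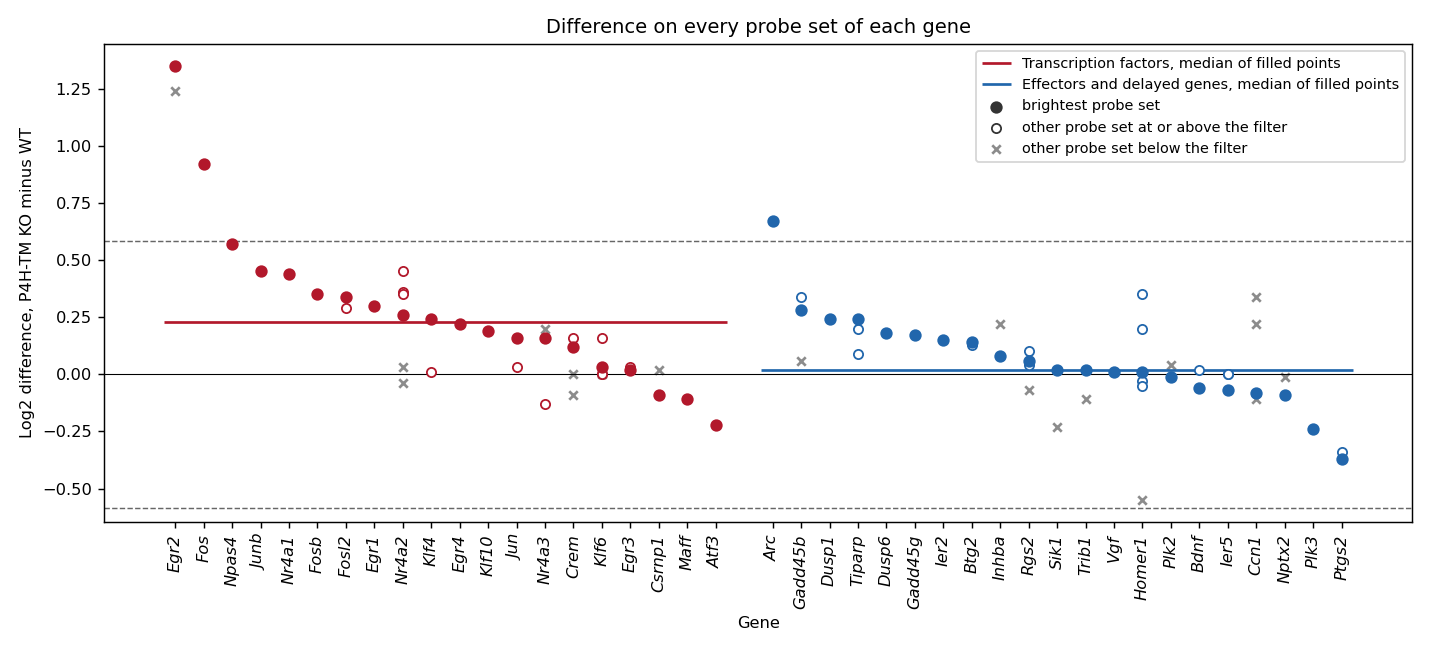
Log2 difference, P4H-TM KO minus WT, on each of the 86 probe sets of the 41 genes, for transcription factors (red) and effectors (blue). Filled points are the brightest probe set of a gene, open points other probe sets at or above the signal filter, crosses probe sets below it, horizontal bars the medians of 0.23 and 0.02, and dashed lines 1.5-fold; both Egr2 probe sets, each below the filter, lie above 1.2, both Ptgs2 probe sets lie below −0.3, and those of Homer1 spread from −0.55 to 0.35.

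Probe sets of the same gene give the available check on a single difference. Of 24 members with several probe sets, 11 had the same direction on all of them. Restricted to probe sets at or above the signal filter, 11 of 16 did. A probe set with equal values on both arrays counted against agreement, as in Ier5 and Klf6. The same share over all genes was not computed. Over 5101 genes with several such probe sets, the difference had a pooled SD of 0.10 between probe sets of a gene. Fos, Arc, Npas4, Junb, Nr4a1 and Egr1 each have 1 probe set, so for these the check cannot be made. Agreement between probe sets covers the measurement on these arrays and not the spread between animals.

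The promoters of the factors with the largest differences were set beside those of Homer1 and Plk2, to show which activity-response elements lie next to these start sites. Homer1 and Plk2 are late effectors with differences near 0 on their brightest probe sets. Other probe sets of Homer1 ranged from −0.55 to 0.35, and which of them detect its activity-induced short form was not examined. CREB binds the cAMP response element TGACGTCA and its core TGACG, and SRF binds the CArG box. Sequences are from RefSeq (GRCm38.p6), 5′ to 3′ in the direction of the gene, the 150 bases before the annotated start, with capitals for these elements on either strand and for TATAAA on the strand shown. The regions are chr10:67537416-67537565 on the plus strand for Egr2, where the most upstream start whose window has a CArG box was taken out of 5 annotated starts, and chr12:85473740-85473889 on the plus strand for Fos. Those of Junb and Npas4 are chr8:84978749-84978898 and chr19:4989972-4990121, both on the minus strand. Those of Homer1 and Plk2 are chr13:93303607-93303756 and chr13:110394894-110395043, both on the plus strand, where the more upstream of 2 annotated starts was taken for Homer1.
Egr2: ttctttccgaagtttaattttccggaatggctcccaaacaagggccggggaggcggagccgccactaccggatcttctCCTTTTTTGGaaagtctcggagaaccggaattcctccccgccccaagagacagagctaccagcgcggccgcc
Fos: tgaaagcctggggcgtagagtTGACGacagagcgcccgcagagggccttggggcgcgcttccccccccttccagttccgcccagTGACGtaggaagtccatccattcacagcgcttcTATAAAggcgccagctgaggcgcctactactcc
Junb: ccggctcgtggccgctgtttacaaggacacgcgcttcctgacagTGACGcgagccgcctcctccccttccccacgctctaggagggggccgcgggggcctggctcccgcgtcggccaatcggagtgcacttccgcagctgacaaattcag
Npas4: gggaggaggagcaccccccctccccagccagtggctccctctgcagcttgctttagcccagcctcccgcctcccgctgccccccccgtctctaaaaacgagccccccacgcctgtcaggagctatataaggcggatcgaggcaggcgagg
Homer1: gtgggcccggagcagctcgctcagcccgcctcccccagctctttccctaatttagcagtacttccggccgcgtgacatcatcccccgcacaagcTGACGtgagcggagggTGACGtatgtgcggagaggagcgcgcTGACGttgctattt
Plk2: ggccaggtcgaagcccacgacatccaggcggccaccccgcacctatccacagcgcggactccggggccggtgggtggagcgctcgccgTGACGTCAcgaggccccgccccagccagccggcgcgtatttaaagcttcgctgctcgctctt

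Egr2 has a CArG box 72 to 63 bases before its start, and Fos has a TGACG core 66 to 62 bases before its start and another farther upstream. Homer1 and Plk2 were printed for differences near 0 on their brightest probe sets. Homer1 has 3 cores, and Plk2 has the only full cAMP response element of the 6 stretches. None of these letters matched in the stretch of Npas4, although its longer window has a core. The table of promoters held windows of 300 bases for 31 of the members, 250 bases before and 50 after the start. The other 10, Egr1, Egr3 and Arc among them, had no window. Elements outside the windows were not searched, so a member without a match may have the element elsewhere. At least 1 window contained TGACG on either strand in 22 of the 31 members, against 23.0% of 27025 genes, and 59.6% of member windows did, against 20.8% of all windows. The full element TGACGTCA, which contains the core, was found in 4 of 31, against 2.03% of genes. These were Dusp1, Btg2, Maff and Plk2, with a median log2 difference of 0.065, against 0.17 in the 27 members without it. The CArG box was found in Egr2 alone, against 1.81%. Member windows had a median GC content of 61.3% and all windows one of 52.7%, and the part of base composition in these shares was not tested. TATAAA was found in 6 of 31 members, Fos and Junb among them, against 9.77% of genes, although the match of Junb lies outside the stretch shown. The AP-1 site, TGACTCA or TGAGTCA, was found in Csrnp1 alone, against 5.95%. The median log2 difference was 0.15 in the 22 members with TGACG and 0.17 in the 9 without it. For the factors these medians were 0.26 in 13 genes with TGACG and 0.16 in 3 without it. For the effectors they were −0.01 in 9 genes and 0.175 in 6. The order turned between the classes, but it rests on few genes. A match describes letters only.

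Genes upstream of the response had nearly equal values in both genotypes. Of 23 measured genes for kinases, calcineurin subunits, CREB, SRF, MEF2 factors and their coactivators, 12 were higher and 11 lower in P4H-TM KO. Their median difference was 0.01, and 0 of 23 reached 1.5-fold. Of the 11730 genes at or above the filter, 0.631% were 1.5-fold higher and 0.0512% lower. A count of 0 therefore does not set the upstream genes apart. The highest values relative to WT were those of Srf, at 0.16, and of the CREB coactivators Crtc3 and Crtc1, at 0.12 each. The lowest were those of Crtc2, at −0.18, and Camk2b, at −0.13, followed by Mef2d, Camk2a, Ppp3ca and Mrtfb, each at −0.08. Several of these depend on the probe set, as averaging probe sets gave −0.005 for Crtc3, −0.025 for Crtc2 and 0.117 for Mrtfb. Creb1 had 10.53 in WT against 10.62 in P4H-TM KO.

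Other genes that respond to activity, on a list that holds none of the 41 members, had a smaller median. Of 40 measured genes, 25 were higher and 14 lower in P4H-TM KO, and their median difference was 0.05. At or above the signal filter, 0 of 33 reached 1.5-fold, where 0.631% of 11730 genes were higher and 0.0512% lower. This count of 0 does not set the list apart. Adcyap1, which encodes the neuropeptide PACAP, had 6.87 in WT against 7.38 in P4H-TM KO, a difference of 0.51. Pcsk1, a prohormone convertase, had 5.96 and 6.44, and Stc1, a secreted glycoprotein, had 6.36 and 6.68 but a difference of 0.095 with probe sets averaged. At the other end were Penk, the enkephalin precursor, with 9.53 and 9.13, Cebpd, with 9.87 and 9.58, and Rrad, with 5.46 and 5.27. Pcsk1 and Rrad have means of both arrays below the signal filter. The median of 0.05 lies between those of the effectors and the factors.

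**Figure D4:**
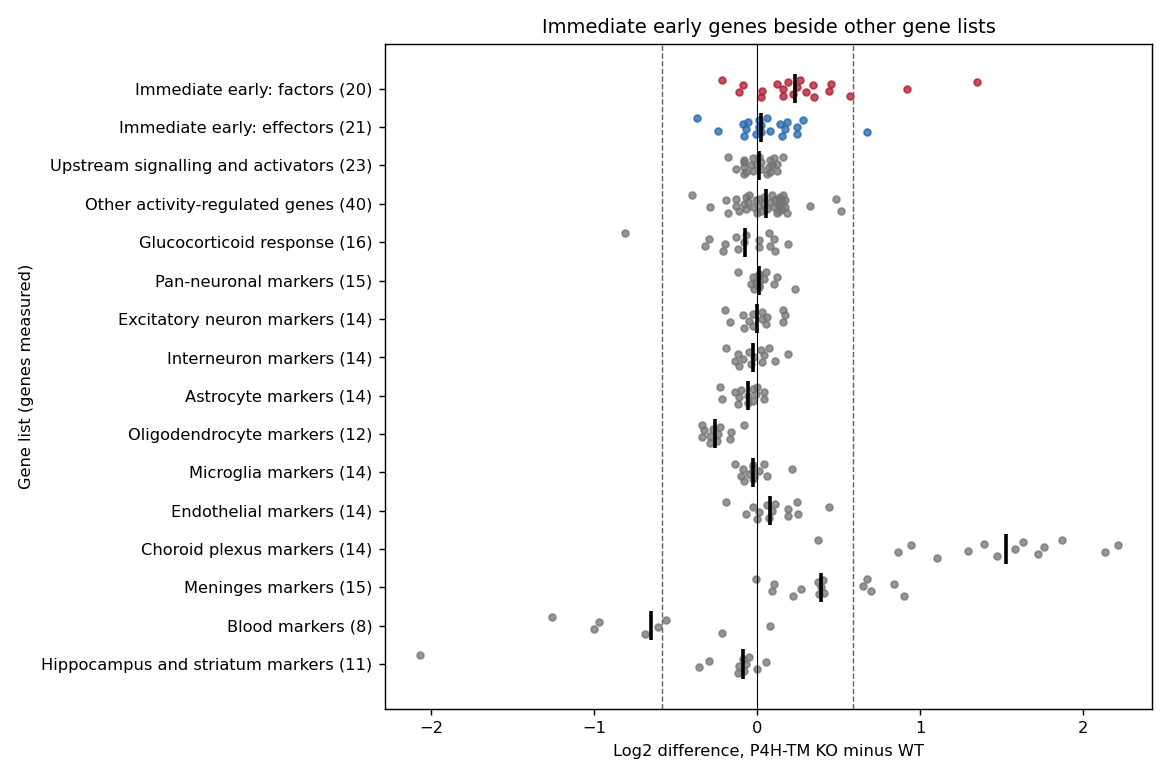
Log2 difference, P4H-TM KO minus WT, of each measured gene in the lists named on the vertical axis, with the number of genes in brackets, a black bar at the median of each list and dashed lines at 1.5-fold. The factors have a median of 0.23 and the effectors one of 0.02, while pan-neuronal markers center at 0.01 and choroid plexus markers at 1.525; points are genes and not replicates.

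Markers of neurons, the cells in which Fos, Arc and Npas4 respond to synaptic activity, had median differences near 0. The median difference was 0.01 over 15 pan-neuronal markers, 0.00 over 14 markers of excitatory neurons and −0.03 over 14 markers of interneurons. On the linear scale, the summed signal of the pan-neuronal markers was 79434 in WT against 79340 in P4H-TM KO, that of the excitatory neuron markers was 43514 and 41512, and that of the interneuron markers was 25300 and 25335. Single markers varied more than these medians. Pan-neuronal markers ran from Nefm at −0.12 to Elavl4 at 0.23, with 10 higher and 5 lower in P4H-TM KO. Excitatory neuron markers ran from Grin2b at −0.20 to Foxp2 at 0.17, with 7 higher and 7 lower. Interneuron markers ran from Pvalb at −0.19 to Calb2 at 0.19, with 6 higher and 8 lower. Markers of tissues that border the cortex differed more. All 14 choroid plexus markers, from Ttr at 0.37 to Kcnj13 at 2.21, and 14 of 15 meninges markers, from Slc22a6 at −0.01 to Dcn at 0.90, were higher in P4H-TM KO. Their medians were 1.525 and 0.39, and their summed signals went from 25427 to 37278 and from 5531 to 8560. All 12 oligodendrocyte markers were lower, from Cldn11 at −0.34 to Mbp at −0.08, with a median of −0.26 and sums of 81185 in WT against 71739 in P4H-TM KO. Of 8 blood markers, from S100a8 at −1.26 to Hba-a1 at 0.08, 7 were lower, with a median of −0.65 and sums of 603 and 371. Only 1 of these 8 reached the signal filter, so the sizes of these differences are uncertain. Of 11 markers of the hippocampus and striatum, from Spink8 at −2.07 to Ppp1r1b at 0.05, 9 were lower, with a median of −0.09 and sums of 6872 and 5556. Spink8 had 10.19 in WT against 8.12 in P4H-TM KO, the lowest difference of all 18193 genes. It makes up most of the drop between these sums. Of 14 astrocyte markers, 11 were lower, with a median of −0.06, and of 14 microglia markers, 10 were lower, with a median of −0.03. Of 14 endothelial markers, up to Slco1c1 at 0.44, 10 were higher, with a median of 0.08. An array has no true zero, so absence of a cell type cannot be read from these values. The part of choroid plexus, meninges, glial, endothelial, blood, hippocampus or striatum content in the differences of the immediate early genes was not tested, and the pool of animals and the genotype cannot be told apart.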

How the data were processed

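Total RNA of cortical tissue, pooled from 4 mice per genotype, was hybridized to 1 Affymetrix Mouse Genome array for WT and 1 for P4H-TM KO. The authors read the scans in GeneChip Operating System and used GenePattern for normalization. RMA is named by the submitters' processing notes. Versions are not given in the sources used here. The deposited values are log2 expression per probe set, rounded to 2 decimals, with medians of 6.38 and 6.39, so medians close to 0 are coarse. RMA makes arrays alike in distribution and compresses differences of dim probe sets.

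Of 45101 probe sets, 34958 carry 1 gene symbol in the platform annotation. Symbols were updated through gene identifiers to RefSeq (GRCm38.p6), which changed the symbol of none of the 41 members. Each gene took its probe set with the highest mean. All members are named in the text, and the 3 highest and lowest genes of related lists. The members, their classes and 14 further lists, with 219 of 240 genes measured, were chosen with earlier results of these data known. The printed promoters were chosen after their values were seen.

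With 1 array per genotype no test was made, and the number of arrays limits the precision. Alternatives were averaged probe sets, removal of probe sets that can match several transcripts, centred arrays, a lowess trend (span 0.3), other filters and folds, means, and other classes. The scripts were tested on simulated data. Software was matplotlib 3.10.9, statsmodels 0.14.6, pandas 2.3.3 and numpy 2.4.6 under Python 3.11.15.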

Additional observations from a re-analysis of the deposited data

How the results depend on the processing

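The median difference of the members, 0.15, was 0.125 with probe sets averaged and 0.172 as a mean, and stayed within 0.0198 of 0.15 under 4 other settings, a bound derived from the pooled SD between probe sets. The gap between factors and effectors, 0.21, was 0.17 without probe sets that can match several transcripts, 0.17 with Ier2, Ier5 and Btg2 among the factors and 0.09 without the late effectors. It ranged from 0.1725 to 0.2207 under the other settings. Of the members, 2 were at least 1.5-fold higher and 0 lower. These numbers were 6 and 1 at a log2 difference of 0.322, and 0 and 0 at 2-fold. Of the 11730 genes at or above the filter, 0.222% were at least 2-fold higher. Without a filter the members at least 1.5-fold higher were 3, with Egr2, against 0.61% of all genes. A filter on the higher of the arrays, which was chosen after the values were seen, also gave 3, against 0.706% of the genes that passed it, but Egr2 passed it only through the P4H-TM KO array, where it was high, so this setting adds no support. Averaging probe sets turned the sign of Sik1, Trib1, Ccn1, Plk2 and Homer1, of which only Homer1 has other probe sets at or above the filter. Neither centring nor removal of the trend turned any sign, although Vgf and Homer1 came to 0.0 after centring. The P4htm difference of −1.95 was −1.795 with its probe sets averaged. The cause of these shifts was not tested. Dim probe sets limit Egr2, Fosb, Atf3 and Maff.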

Other observations

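Genes of the glucocorticoid response, which corticosterone induces through its receptor, had values on both sides of 0. Of 16 measured genes, 7 were higher and 9 lower in P4H-TM KO, and their median log2 difference was −0.075. Fkbp5, a chaperone of the glucocorticoid receptor, had 10.06 in WT against 9.93 in P4H-TM KO, and Tsc22d3, a further target of the receptor, had 10.92 and 10.80. The highest values relative to WT were those of Errfi1, at 0.19, Sgk1, at 0.11, and Per1, at 0.10, of which Sgk1 and Per1 are also on the list of other activity-regulated genes. The lowest were those of Plin4, at −0.81, Mt2, at −0.32, and Sult1a1, at −0.30. Plin4, a coat protein of lipid droplets, had 6.54 in WT against 5.73 in P4H-TM KO, with a mean of both arrays below the signal filter.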
